A study of Homo sapiens with 4 samples.

Results

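Expression of 9 transcription factors that direct granulocyte and monocyte formation was examined in the cell line MDS-L and its derivative MDS-L/CDA after exposure to 5-azacytidine (AZA). The genes were SPI1, CEBPA, CEBPB, CEBPD, CEBPE, IRF8, GFI1, MYB and KLF4, which were matched to probes by name, out of 43311 gene names on the array. They have 10 of the 58185 probes analysed, 2 for MYB and 1 for each of the others. All 9 genes are accounted for here. 7 of them (SPI1, CEBPA, CEBPB, CEBPD, CEBPE, GFI1 and MYB) gave signal well above background on all 4 arrays, and IRF8 and KLF4 did so on none.

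Total RNA was hybridized to 4 one-colour (Cy3) Agilent arrays on 1 slide, and each line and treatment had 1 array. MDS-L cells derive from a myelodysplastic syndrome (MDS), a clonal disorder in which blood cells fail to mature. MDS-L/CDA is an AZA-resistant derivative that the authors obtained by transducing CDA, whose product deaminates cytidine and its analogues. Both lines grew in medium with IL-3 (20 ng/mL in the sample labels, a different concentration in the study's methods) and received vehicle (0.1% DMSO) or AZA at 1 μM for 72 h. The titles of both AZA samples give the dose as 1 mM, and the dose of the other label fields and of the methods was used. One label field names the opposite treatment for the MDS-L AZA array and for the MDS-L/CDA vehicle array, and the title, description and source name were followed for both. Whether MDS-L/CDA is 1 clone is not given in the sources used here, so an effect of CDA cannot be told apart from any other difference between the lines.

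Each value below is a relative signal, the background-subtracted brightness of a probe as a multiple of the 75th percentile of its own array. That percentile was a signal between 37.3 and 52.9. Between 32.6% and 36.5% of the probes carried the scanner's flag for signal well above background, and no spot was saturated. CDA has 1 probe, which never read well above background on these arrays, and whether the transduced transcript carries that probe's sequence was not tested. Of 8 markers of myeloid blasts (CD34, CD33, ANPEP, KIT, CD38, IL3RA, PTPRC and MPO), 7 were well above background on every array, all but MPO, and their summed relative signal was between 146 and 162. Within that sum, with AZA in MDS-L cells, KIT was higher (0.503 and 23.8) and CD38 2.79-fold lower (23.5 and 8.43). Since each condition has 1 array, no difference has a replicate check, and no test was made. The scanner software's error model puts about 0.20 log2 units on a ratio between 2 arrays for the main probe of each of the 7 measured genes. That figure covers the reading of spots and not the spread between cultures. Signal depends on the probe, so no level of one factor was set against that of another. The sums over markers add signals of different probes and give most weight to the brightest.

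Myeloid cells take their identity from a small set of transcription factors acting on each other's genes. PU.1, the product of SPI1, and C/EBPα together commit progenitors to the myeloid lineages, and C/EBPε and GFI1 act in the granulocyte branch while IRF8 and KLF4 act in the monocyte branch. MYB maintains immature progenitors, and C/EBPβ and C/EBPδ are members of the C/EBP family that respond to cytokines and inflammation. C/EBP proteins bind DNA as dimers through a leucine zipper and can pair with one another. AZA is built into RNA and DNA and traps DNA methyltransferases, so that CpG methylation is lost as cells divide.

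The 3 factors whose relative signal in MDS-L cells differed by 1.5-fold or more between AZA and vehicle were CEBPA, CEBPB and GFI1. Their promoter windows are shown because CpG is the dinucleotide whose methylation AZA lowers, and because GFI1 held the sole match to a C/EBP motif among the windows examined. Each window is the 250 bases before an annotated start in RefSeq, build GRCh38.p14, read 5′ to 3′ on the strand of the gene. CpG is in capitals for CEBPA (chr19:33302535-33302784, minus strand) and for CEBPB (chr20:50190580-50190829, plus strand). In the GFI1 window (chr1:92486100-92486349, minus strand) the capitals mark the match to the C/EBP motif.
CEBPA: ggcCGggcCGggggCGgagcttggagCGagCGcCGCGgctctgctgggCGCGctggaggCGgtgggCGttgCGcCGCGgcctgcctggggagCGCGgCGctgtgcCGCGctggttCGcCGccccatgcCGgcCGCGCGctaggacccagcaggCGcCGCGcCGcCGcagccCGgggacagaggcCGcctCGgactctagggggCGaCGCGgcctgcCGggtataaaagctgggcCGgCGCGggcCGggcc
CEBPB: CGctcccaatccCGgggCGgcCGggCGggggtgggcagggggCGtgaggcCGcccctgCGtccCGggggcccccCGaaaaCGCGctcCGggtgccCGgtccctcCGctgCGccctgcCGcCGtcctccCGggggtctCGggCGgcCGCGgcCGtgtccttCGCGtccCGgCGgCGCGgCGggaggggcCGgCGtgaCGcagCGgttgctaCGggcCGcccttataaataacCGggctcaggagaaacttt
GFI1: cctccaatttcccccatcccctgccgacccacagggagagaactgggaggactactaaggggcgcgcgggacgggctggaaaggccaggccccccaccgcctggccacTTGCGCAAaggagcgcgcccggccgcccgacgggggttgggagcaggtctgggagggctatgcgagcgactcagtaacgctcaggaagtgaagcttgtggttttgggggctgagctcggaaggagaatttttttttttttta

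The CEBPA window held 41 CpG, more than 98.3% of 35116 RefSeq windows of the same length, which had a median of 11. The CEBPB window shown held 38 CpG, more than 96.7% of the windows, and the window of a second CEBPB start beside it held 25. GFI1 has 3 annotated starts, whose windows held 16, 17 and 19 CpG. The MYB window held 34, the KLF4 window 25, the CEBPE window 2, and the windows of both IRF8 starts 2 and 4. RefSeq windows of SPI1 and CEBPD were not analysed here. CEBPA, CEBPB, MYB, KLF4 and GFI1 thus had windows with more CpG than the median, and CEBPE and IRF8 had fewer. Methylation was not measured on these arrays. The motif TTNCNNAA of C/EBP, searched on both strands, was in 33.2% of all windows and matched only the GFI1 window shown, where the matches on both strands fell on the same 8 bases. The PU.1 motif GAGGAA was in 23.6% of all windows and matched CEBPE, KLF4 and the GFI1 window at chr1:92483815-92484064. The MYB motif AACNG was in 70.6% of all windows and matched the windows of IRF8, CEBPE and MYB, the CEBPB window shown and the same 2 GFI1 windows as the other motifs. A match is a run of letters and not a binding site.

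In MDS-L cells, AZA was accompanied by higher signal of CEBPB and lower signal of CEBPA and GFI1. In MDS-L/CDA cells the ratio of AZA to vehicle was nearer to 1 for all 3. For CEBPA that gap between the lines (log2 -0.28) was within the scanner error of 0.29 on such a difference. GFI1 was the single factor at or past 2-fold in any of the 4 comparisons. In MDS-L cells 0 of the 7 measured factors were at least 2-fold higher and 1, GFI1, at least 2-fold lower with AZA, where 6.73% and 6.03% of all genes with a value were. For MDS-L/CDA cells 0 factors passed in either direction, where 2.53% of all genes were at least 2-fold higher and 3.07% at least 2-fold lower. At 1.5-fold, 1 factor (CEBPB) was higher and 2 (CEBPA and GFI1) lower in MDS-L cells, where 14.1% and 18.1% of all genes were, and 0 passed in MDS-L/CDA cells, where 9.32% and 9.6% did. With counts this small, the share of the factors past 2-fold is not set apart from that of all genes.

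**Figure D1:**
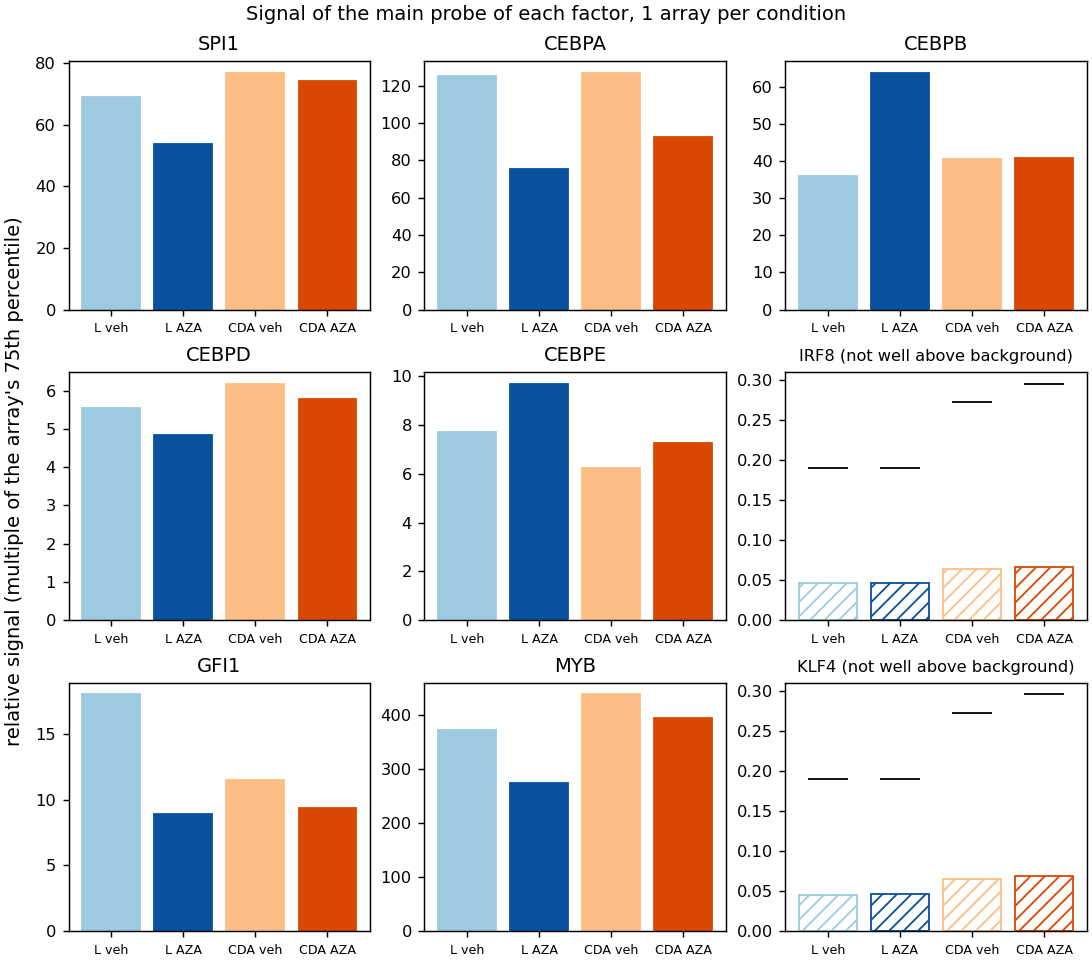
Relative signal (multiple of the array's 75th percentile, linear axis from 0) of the main probe of each factor, 1 bar per array (L for MDS-L, CDA for MDS-L/CDA, veh for vehicle), with hatched bars for signal not well above background and short lines at the lowest signal that is. CEBPB stood highest in MDS-L AZA at 63.8 against 36.0 to 40.9 elsewhere, and GFI1 stood highest in MDS-L vehicle at 18.0 against 8.94 to 11.5 elsewhere.

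SPI1 encodes PU.1, an ETS factor required for both myeloid branches. Its probe lies at chr11:47376464-47376523 on the minus strand in hg19, the build of the deposited probe positions. The relative signal of SPI1 was 69.0 with vehicle and 53.9 with AZA in MDS-L cells, against 76.8 and 74.2 in MDS-L/CDA cells. MDS-L AZA was the low array and the other 3 lay close together. With AZA the signal was 1.28-fold lower in MDS-L cells (log2 ratio -0.36), beyond the scanner error, and within it in MDS-L/CDA cells (log2 ratio -0.05). Under quantile normalization the MDS-L ratio was also within that error (log2 -0.10). In MDS-L cells 32.9% of the measured genes had a lower ratio than SPI1. In bulk RNA, fewer cells that express a gene and less RNA per cell cannot be told apart, here and for every gene below.

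CEBPA encodes C/EBPα, which drives granulocyte commitment and restrains the cell cycle. Its probe is at chr19:33791353-33791412, minus strand. The relative signal of CEBPA was 125 with vehicle and 75.2 with AZA in MDS-L cells, against 127 and 92.6 in MDS-L/CDA cells. Both vehicle arrays stood above both AZA arrays, and the vehicle arrays of the 2 lines were alike at this scaling. AZA was accompanied by a 1.66-fold lower signal in MDS-L cells and a 1.37-fold lower signal in MDS-L/CDA cells, both beyond the scanner error (log2 ratios -0.73 and -0.45). In MDS-L cells 12.1% of the 15104 genes measured on both arrays had a lower ratio than CEBPA.

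CEBPB encodes C/EBPβ, a factor of monocytes and macrophages and of granulocyte production under stress. Its probe, at chr20:48808989-48809048 on the plus strand, is the only probe of these genes printed in 10 spots on each array. The relative signal of CEBPB, the mean over spots on the log2 scale, was 36.0 with vehicle and 63.8 with AZA in MDS-L cells, against 40.5 and 40.9 in MDS-L/CDA cells. MDS-L AZA stood apart from the other 3 arrays. The AZA signal was 1.78 times the vehicle signal in MDS-L cells (log2 ratio 0.83), a ratio exceeded by 6.10% of the measured genes, and 1.01 times it in MDS-L/CDA cells (log2 ratio 0.01).

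The spots of CEBPB show how far the reading of 1 probe varies within an array. They ran from 32.9 through a median of 36.5 to 39.8 in MDS-L vehicle and from 58.4 through 63.7 to 69.3 in MDS-L AZA. For MDS-L/CDA cells they ran from 36.5 through 41.2 to 43.4 with vehicle and from 32.5 through 42.1 to 47.1 with AZA. No spot of MDS-L vehicle reached the lowest spot of MDS-L AZA, whereas the spots of the MDS-L/CDA arrays overlapped. The SD over spots was between 0.075 and 0.17 log2 units, and the standard error it gives was 0.04 on the MDS-L ratio and 0.06 on the MDS-L/CDA ratio. Spots of 1 array share the RNA of 1 culture and are not biological replicates. One CEBPB spot in MDS-L/CDA vehicle carried an outlier flag in its local background and was kept.

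**Figure D2:**
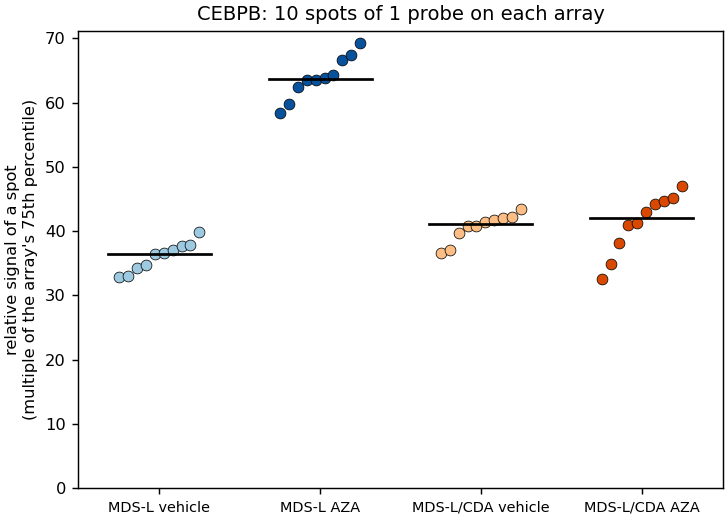
Relative signal (multiple of the array's 75th percentile, linear axis from 0) of each of the 10 spots of the CEBPB probe on each array, in rising order, with a line at the median. The spots of MDS-L AZA lay between 58.4 and 69.3, above every spot of the other 3 arrays, whose highest was 47.1.

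CEBPD and CEBPE, the other C/EBP genes examined, differed less between the arrays. CEBPD, whose product is induced early by cytokines, has a minus-strand probe on chromosome 8 and gave relative signals of 5.54 with vehicle and 4.85 with AZA in MDS-L cells, against 6.18 and 5.77 in MDS-L/CDA cells. The 4 arrays were close, and the AZA ratios (log2 -0.19 and -0.10) were within the scanner error in both lines. The CEBPD spot in MDS-L/CDA vehicle had a flag in its local background. CEBPE, whose product acts late in granulocyte maturation, has its probe at chr14:23586547-23586606, minus strand, and gave 7.72 with vehicle and 9.70 with AZA in MDS-L cells, against 6.25 and 7.25 in MDS-L/CDA cells. In both lines the AZA array was the higher of the pair, at ratios of 1.26 for MDS-L and 1.16 for MDS-L/CDA, but the MDS-L ratio was below 1 when the arrays were scaled to their medians (log2 0.33 against -0.21).

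GFI1 encodes a zinc-finger repressor that favours granulocytes over monocytes. Its probe is at chr1:92940780-92940838, minus strand. The relative signal of GFI1 was 18.0 with vehicle and 8.94 with AZA in MDS-L cells, against 11.5 and 9.40 in MDS-L/CDA cells. MDS-L vehicle was the high array and the other 3 lay near each other. AZA was accompanied by a 2.02-fold lower signal in MDS-L cells (log2 ratio -1.01) and a 1.23-fold lower signal in MDS-L/CDA cells (log2 ratio -0.29), and in MDS-L cells 5.68% of the measured genes had a lower ratio. GFI1 lay at the 2-fold threshold itself, and its log2 ratio in MDS-L cells was -0.85 under quantile normalization, which left it short of 2-fold.

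MYB, the progenitor factor, was read by 2 probes. The brighter one, at chr6:135540223-135540282 on the plus strand, gave relative signals of 373 with vehicle and 274 with AZA in MDS-L cells, against 438 and 395 in MDS-L/CDA cells. MDS-L AZA was the low array, 1.36-fold below its vehicle (log2 ratio -0.45), and the MDS-L/CDA ratio (log2 -0.15) was within the scanner error. The spot in MDS-L AZA had a flag in its local background. The other probe, at chr6:135516143-135516202, gave 0.908, 0.729, 0.814 and 0.824 on the same arrays in that order, with log2 AZA ratios of -0.32 for MDS-L and 0.02 for MDS-L/CDA. Both probes put MYB lower with AZA in MDS-L cells, and they differ in sign in MDS-L/CDA cells.

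IRF8 and KLF4, the monocyte factors, gave no measurable level. The IRF8 probe (chr16:85956052-85956111, plus strand) read 0.0467, 0.0465, 0.0639 and 0.0666 in MDS-L vehicle, MDS-L AZA, MDS-L/CDA vehicle and MDS-L/CDA AZA. The KLF4 probe (chr9:110248049-110248108, minus strand) read 0.0443, 0.0456, 0.0652 and 0.0681 in the same order. The lowest signal well above background was 0.190 on each MDS-L array, 0.272 and 0.296 on the vehicle and AZA arrays of MDS-L/CDA. All readings of IRF8 and KLF4 were below that limit, so no fold is given and their absence is not shown.

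The AZA effects of the lines were then set side by side, since the study screened for genes that responded in MDS-L cells and not in the resistant line. These 2 comparisons share no array. All 7 measured factors had a larger log2 AZA ratio, in size, in MDS-L than in MDS-L/CDA cells, as did 61.6% of 13962 genes measured on all 4 arrays. The sign of the ratio was the same in both lines for 7 of 7 factors and for 61.5% of the genes. Under the other normalizations 6 or 7 of the 7 factors were larger in MDS-L cells and 5 to 7 kept the same sign, because ratios near 1 crossed it. The log2 AZA ratio in MDS-L cells minus that in MDS-L/CDA cells was 0.81 for CEBPB and -0.72 for GFI1, against a scanner error of 0.29 on such a difference. It was -0.31 for SPI1 and -0.30 for MYB, just past that error, and -0.28 for CEBPA, 0.11 for CEBPE and -0.09 for CEBPD, within it. CEBPA was thus lower with AZA in both lines, by amounts that differed by less than the scanner error. No test of that difference was possible.

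**Figure D3:**
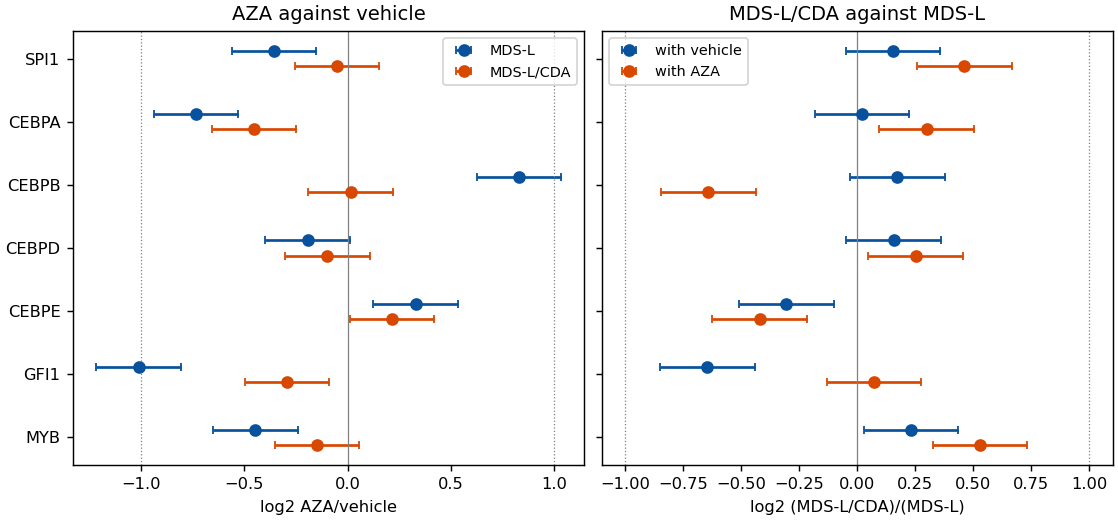
Log2 ratio of relative signal for each measured factor, AZA over vehicle in each line (left) and MDS-L/CDA over MDS-L with each treatment (right), with bars for the scanner software's error of about 0.20 log2 units, which holds no culture spread, and dotted lines at 2-fold. CEBPB at 0.83 and GFI1 at -1.01 in MDS-L cells lay farthest from 0.

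The median log2 AZA ratio of the 7 factors in MDS-L cells was -0.36, where that of all 15104 measured genes was -0.16. 5 of the 7 factors had a ratio below 1, as did 62.3% of the genes. For MDS-L/CDA the factors had a median of -0.10, against 0.01 over 14137 genes, and 5 of 7 factors and 48.5% of the genes were below 1. As groups the factors therefore lay near the other genes. A change of one factor relative to another does not depend on the scaling of an array. Against CEBPA, CEBPB was 2.95 times higher after AZA than after vehicle in MDS-L cells and 1.38 times higher in MDS-L/CDA cells. Against GFI1, CEBPB was 3.58 times higher in MDS-L cells and 1.24 times higher in MDS-L/CDA cells. In log2 units the shift of CEBPB against CEBPA stayed between 1.51 and 1.58 in MDS-L cells and between 0.33 and 0.47 in MDS-L/CDA cells under every normalization tried. That of CEBPB against GFI1 stayed between 1.74 and 1.94 and between 0.29 and 0.33.

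**Figure D4:**
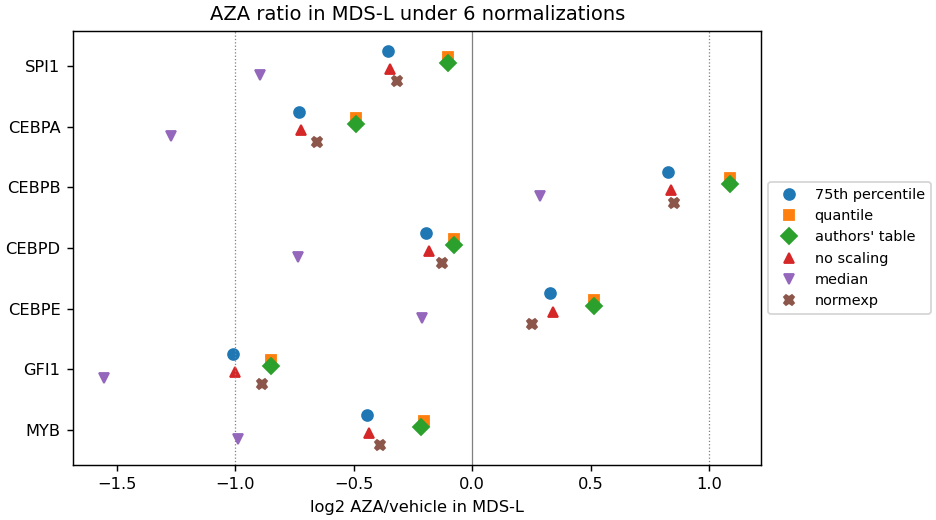
Log2 ratio of AZA over vehicle in MDS-L cells for each measured factor under 6 normalizations of the arrays (one marker each, dotted lines at 2-fold). CEBPB stayed above 0 (0.29 to 1.09), SPI1, CEBPA, CEBPD, GFI1 and MYB stayed below 0, and CEBPE crossed it under median scaling.

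The lines were also compared with each other. These comparisons use the same 4 arrays as the AZA comparisons, so they are no separate evidence. With vehicle, 0 factors were at least 2-fold higher or lower in MDS-L/CDA than in MDS-L cells, where 1.97% of all genes were higher and 2.64% lower. At 1.5-fold 0 were higher and 1 lower, where 7.96% and 7.81% of all genes were. GFI1 was 1.56-fold lower in MDS-L/CDA cells (log2 ratio -0.64) and CEBPE 1.23-fold lower (log2 ratio -0.30), and both were lower under every normalization. SPI1, CEBPA, CEBPB, CEBPD and MYB were between 1.01 and 1.17 times the MDS-L signal, and their direction turned under other scalings. With AZA, again 0 factors passed 2-fold, where 5.43% of all genes were higher and 5.23% lower, and at 1.5-fold 0 were higher and 1 lower, where 20.3% and 11.1% of all genes were. CEBPB was 1.56-fold lower in MDS-L/CDA cells (log2 ratio -0.64), with no overlap between the spots of both arrays, and CEBPE was 1.34-fold lower, both under every normalization. MYB was 1.44-fold higher in MDS-L/CDA cells with AZA (log2 0.53, and between 0.02 and 0.53 over the normalizations). The dimmer MYB probe had log2 ratios of 0.18 with AZA and -0.16 with vehicle, within its scanner errors of 0.25 and 0.24. SPI1 was 1.38-fold and CEBPA 1.23-fold higher, but without scaling both were lower in MDS-L/CDA cells, as were CEBPD and GFI1. GFI1 was thus lower in the resistant line with vehicle, and CEBPB with AZA.

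Partners and antagonists of these factors were taken from a list of 38 genes that includes RUNX1, CBFB, the GATA factors and the TRIB genes, all on the array. In MDS-L cells 8 of the 34 with a value reached 2-fold higher signal with AZA, and 0 lower, where 6.73% and 6.03% of all genes did. The partners had a median log2 ratio of -0.02. With median scaling 8 partners were lower in place of 0. The list was chosen with earlier results of these data known. TRIB2, a pseudokinase that targets C/EBPα for degradation, was 15.0-fold higher (relative signal 0.402 with vehicle and 6.02 with AZA). TRIB1, its relative with the same activity, was 6.85-fold higher (4.10 and 28.1). GATA1, the erythroid, megakaryocyte and mast cell factor that antagonises PU.1, was 11.4-fold higher (1.26 and 14.4). The immediate early factors EGR1 and FOS were 10.8-fold and 6.21-fold higher, and KLF2 5.51-fold. With vehicle EGR1 read 0.382 and FOS 0.236, where the lowest signal well above background was 0.190. ID2, an inhibitor of basic helix-loop-helix factors, was 4.80-fold higher (2.07-fold by its other probe). GATA2, a progenitor and mast cell factor, was 2.46-fold higher. Over the normalizations FOS and GATA2 fell short of 2-fold (log2 0.95 and 0.75 at the least). The log2 ratios of EGR1 and KLF2 were 1.85 and 1.40 at the least. The TRIB proteins act on C/EBPα protein, which was not measured. CEBPA RNA had lower signal with AZA in both lines (log2 -0.73 in MDS-L and -0.45 in MDS-L/CDA cells). Any link between it and the TRIB genes was not tested.

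In MDS-L/CDA cells 6 of the 32 partners with a value reached 2-fold higher signal with AZA, and 1 lower, with a median log2 ratio of 0.18. GATA1 was 4.10-fold higher (0.507 and 2.08), KLF2 3.07-fold, FOS 2.66-fold, TRIB1 2.38-fold, EGR1 at least 2.27-fold and GATA2 2.01-fold higher. Each of these 6 fell short of 2-fold under some other normalization, with GATA1 at log2 0.88, FOS at 0.43 and EGR1 at 0.33 at the least. TRIB2 was not among them, with 0.504 with vehicle and 0.596 with AZA. ETV6, a repressor of the ETS family, was 2.10-fold lower by its brightest probe, which was short of 2-fold under some normalizations, and its other probe had a log2 ratio of -0.06. Between the lines with vehicle, where 1.97% of all genes were higher and 2.64% lower, 0 partners were higher and 2 lower in MDS-L/CDA cells. They were RCOR1, a corepressor that works with GFI1, 4.86-fold lower, and GATA1, 2.49-fold lower. With AZA 0 partners were higher and 6 lower, where 5.43% and 5.23% of all genes were. TRIB2 was lower by 10.1-fold, GATA1 by 6.94-fold, EGR1 by 6.07-fold, TRIB1 by 2.71-fold, RCOR1 by 2.41-fold and ID2 by 2.01-fold. RCOR1 and GFI1 were both lower in the MDS-L/CDA than in the MDS-L vehicle array. None of the list genes named here and below at or past 2-fold changed direction under another normalization. In each list, however, some of them fell short of 2-fold under another normalization.

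**Figure D5:**
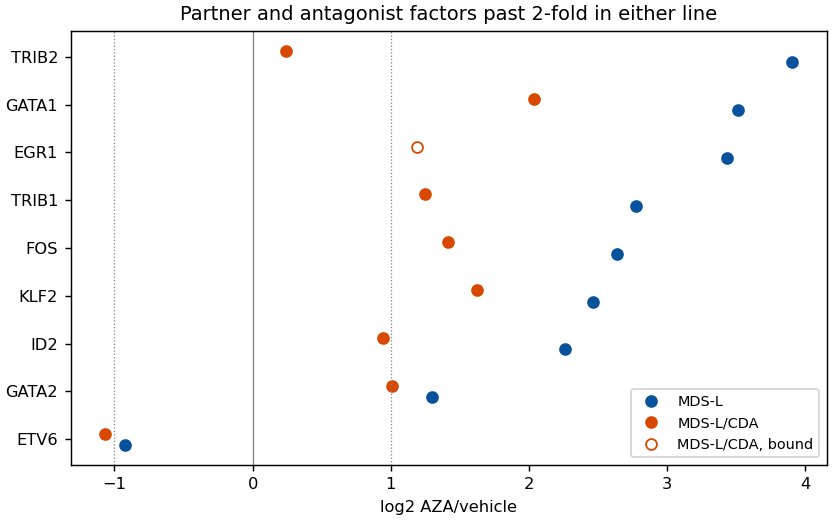
Log2 ratio of AZA over vehicle for the partner and antagonist genes at least 2-fold higher or lower in either line, with dotted lines at 2-fold and the open circle for a lower bound. TRIB2, at 15.0-fold in MDS-L cells and short of 2-fold in MDS-L/CDA cells, showed the widest gap between the lines.

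Of 18 granulocyte genes that C/EBP factors and GFI1 act on, 12 were well above background on no array, as were 59.9% of all 43311 gene names by their brightest probe. The granule protein genes MPO, ELANE and AZU1 were among the 12. In MDS-L cells 1 of 6 with a value was at least 2-fold higher with AZA and 1 lower, where 6.73% and 6.03% of all genes were. They were MMP9, which encodes a granule metalloproteinase, 5.39-fold higher, and the granule protease gene CTSG, 2.05-fold lower. CTSG fell short of 2-fold under quantile normalization, with normexp and with the authors' value table (log2 -1.03, and -0.88 at the least). In MDS-L/CDA cells 1 of 4 was at least 2-fold higher and 1 lower with AZA, where 2.53% and 3.07% of all genes were. They were MMP9 at 3.27-fold higher and CTSG at 2.65-fold lower, and MMP9 fell short of 2-fold under another normalization (log2 0.81 at the least). CSF3R, the G-CSF receptor and a known C/EBPα target, had relative signals of 7.39 with vehicle and 4.14 with AZA in MDS-L cells, against 0.674 and 0.616 in MDS-L/CDA cells. Both MDS-L arrays stood far above both MDS-L/CDA arrays. With vehicle 2 of 4 granulocyte genes were at least 2-fold lower in MDS-L/CDA cells, where 2.64% of all genes were. CSF3R was lower by 11.0-fold and CTSG by 2.14-fold. The CEBPA log2 ratio of those arrays was 0.02, and -0.50 with median scaling. Any link between CEBPA and these genes was not tested. With AZA, where 5.23% of all genes were at least 2-fold lower, 3 of 6 granulocyte genes were, CSF3R by 6.73-fold, CTSG by 2.77-fold and MMP9 by 2.21-fold.

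Of 17 monocyte genes on the array, 9 were well above background on no array. In MDS-L cells 6.73% of all genes were at least 2-fold higher with AZA. Of the monocyte genes 3 of 8 with a value were, CSF1R, the M-CSF receptor (at least 4.86-fold), the costimulatory gene CD86 (4.55-fold) and the integrin gene ITGAM (at least 2.09-fold). That count was 1 with normexp, and 1 where both arrays had to be well above background. CIITA, the MHC class II coactivator, was 2.31-fold lower. Of 8 with a value in MDS-L/CDA cells 0 were higher and 1 lower, where 2.53% and 3.07% of all genes were. It was ITGB2, the partner chain of ITGAM, from 38.2 to 1.61 by its brightest probe (23.8-fold), while its other probe, a bound, was at least 1.89-fold lower. With vehicle 0 of 6 differed by 2-fold between the lines, where 1.97% of all genes were higher and 2.64% lower in MDS-L/CDA cells. With AZA 2 of 8 were higher and 3 lower in MDS-L/CDA cells, where 5.43% and 5.23% of all genes were. CSF2RA was at least 2.35-fold and CD14 2.24-fold higher, and ITGB2 was 11.2-fold, CD86 2.65-fold and CSF1R 2.03-fold lower. In MDS-L AZA CSF2RA was not well above background, and CD14 read 0.236, where the lowest signal well above background was 0.190. At the main scaling the monocyte genes thus differed in both directions, but without scaling 0 were at least 2-fold higher in this last comparison.

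Of 9 known targets of MYB, 8 had a value in MDS-L cells. With AZA 3 were at least 2-fold higher and 1 lower, where 6.73% and 6.03% of all genes were. KIT, the stem cell factor receptor of progenitors and mast cells, was 47.3-fold higher by its brightest probe (0.503 and 23.8) and at least 5.20-fold higher by another, GATA2 2.46-fold and the cyclin gene CCNA1 at least 2.04-fold higher, and CDK6, a cell cycle kinase, was 3.34-fold lower (77.5 and 23.2). With AZA in MDS-L/CDA cells KIT was 3.58-fold and GATA2 2.01-fold higher and 0 of 7 targets were lower, where 2.53% of all genes were higher and 3.07% lower. Between the lines with vehicle 0 of 7 differed by 2-fold, where 1.97% of all genes were higher and 2.64% lower in MDS-L/CDA cells. With AZA 1 of 8 was higher and 1 lower, where 5.43% and 5.23% of all genes were. CDK6 was 3.47-fold higher in MDS-L/CDA cells. KIT was 19.2-fold lower by its brightest probe and at least 3.34-fold lower by another. The MYB targets went both ways while both MYB probes were lower in MDS-L AZA. Any link between MYB and these genes was not tested.

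Markers of other blood lineages differed between the same arrays. For 7 mast cell, basophil and eosinophil markers the summed relative signal was 31.0 with vehicle and 237 with AZA in MDS-L cells, against 12.3 and 54.7 in MDS-L/CDA cells, with 6, 6, 3 and 5 of them well above background. For 6 erythroid markers it was 0.683, 12.7, 0.865 and 1.17, with 0, 4, 1 and 0 well above background. Both sums were highest in MDS-L AZA, the array on which CEBPB was highest. Of 5 megakaryocyte markers ITGA2B made up most of the sum on every array, and it read 14.9 in MDS-L AZA and 22.4 in MDS-L/CDA AZA, while PPBP read 5.83 and 0.863 there. The monocyte markers summed to between 0.446 and 1.25, with at most 2 of 4 well above background, and 1 of 4 neutrophil markers was well above background on each array. The part of these lineages in the results for CEBPA, CEBPB, GFI1 and GATA1 was not tested.

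Antisense genes beside CEBPA and CEBPB were looked up after the values of the factors were known. CEBPA-AS1 had relative signals of 6.98, 3.88, 10.6 and 7.86 by one probe and 1.34, 0.540, 1.71 and 1.21 by another, in the order MDS-L vehicle, MDS-L AZA, MDS-L/CDA vehicle and MDS-L/CDA AZA. Like CEBPA, it was lower with AZA in both lines, 1.80-fold and 2.48-fold in MDS-L cells, and at ratios of 0.741 and 0.708 in MDS-L/CDA cells. CEBPB-AS1 was well above background in MDS-L AZA alone, where it was at least 1.87-fold higher than in MDS-L vehicle. So each antisense gene lay on the same side as its neighbour in MDS-L cells.

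GFI1 was the only factor whose main probe ranged over at least 1 log2 unit among the 4 arrays. Among 13961 other genes measured on all 4 arrays, the pattern closest to it was that of a pair of probes each named only by an Ensembl transcript, with root mean square differences of 0.037 and 0.038 log2 units, and of POM121, a nuclear pore gene with a closely similar copy in the genome, with 0.039. POM121 read 3.31 with vehicle and 1.74 with AZA in MDS-L cells, against 2.20 and 1.86 in MDS-L/CDA cells. A likeness over 4 arrays among so many genes is a description of these arrays.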

How the data were processed

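Expression was measured on 4 one-colour Agilent arrays, 1 for each combination of line and treatment. The deposited scanner output holds spot intensity, background-subtracted by Agilent Feature Extraction 10.7.1.1 and not normalized between arrays, with flags for outlier spots and for signal well above background. The value table that the authors deposited holds intensity of the same arrays whose columns have near-equal distributions, and its scaling is not given in the sources used here. It was an alternative.

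Control spots and 16 probes with outlier flags were left out. Log2 intensity was averaged over spots and then centred on the array's 75th percentile. A gene was read by its brightest probe, and counted when its ratio reached 2. Where 1 array of a pair was not well above background, the ratio is a bound against the lowest signal well above background. No test was possible with 1 array per condition. The deposited files place probes on hg19, and whether a probe lies in a coding exon or a UTR was not analysed here. Promoter windows of 7 of the 9 genes came from RefSeq GRCh38.p14.

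The members, the lists and the alternatives were chosen with earlier results of these data known. All 9 members are named, with the list genes at or past 2-fold (up to 6 in each direction per list and comparison; ID2 and GATA2, 2 further ones in MDS-L cells, and TRIB2 in MDS-L/CDA cells, CSF3R, MPO, ELANE and AZU1 where short of it, were added after their values were seen) and the 3 genes with the pattern nearest to a member that ranged over 1 log2 unit. One list gene that this rule names is not reported here. The calls were tested on simulated data. Python 3.11.15, numpy 2.4.6, pandas 2.3.3, matplotlib 3.10.9 and, for normexp, R 4.3.3 with limma 3.58.1 were used.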

Additional observations from a re-analysis of the deposited data

How the results depend on the processing

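The counts of factors at or past 2-fold were recomputed with 5 other normalizations, 2 other filters on dim probes, 2 other rules for several probes, a 1.5-fold threshold, and a Z score of at least 2 beside the fold. Leaving out spots with a flagged local background was added after the data had been seen. It leaves CEBPD without a value and reads MYB by its dimmer probe. In MDS-L cells with AZA, the count of higher factors was 1 (CEBPB) in place of 0 under quantile normalization, with the authors' value table and at 1.5-fold. The count of lower factors was 0 in place of 1 under quantile normalization, with the authors' value table and with normexp, and 2 (CEBPA and GFI1) with median scaling and at 1.5-fold. For MDS-L/CDA against MDS-L cells with vehicle, 1 factor (GFI1) was lower in place of 0 without scaling, with median scaling and at 1.5-fold. With AZA, 1 factor (CEBPB) was lower in place of 0 without scaling and at 1.5-fold. The other 83 recomputed counts of factors were as reported.

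The ratios depend on the normalization. Median scaling moved the median log2 ratio of all genes by -0.54 for AZA in MDS-L cells and by -0.52 between the lines with vehicle, and no scaling moved it by -0.37 with vehicle and -0.51 with AZA between the lines and by -0.13 for AZA in MDS-L/CDA cells. Quantile normalization moved it by 0.12 for AZA in MDS-L cells and by -0.16 between the lines with AZA, and normexp by -0.11 with vehicle and -0.19 with AZA. Of all genes called for AZA in MDS-L cells, 52.7% were higher, and 11.5% with median scaling and 67.8% with no filter. In MDS-L/CDA cells the share was 45.2%, and 29.0% without scaling and 26.6% with normexp. Between the lines with vehicle it was 42.8%, and 3.37% with median scaling, 7.61% without scaling, 12.5% with normexp and 76.2% with no filter. With AZA it was 51.0%, and 7.11% without scaling, 22.5% with normexp, 40.2% with the mean over probes and 64.6% at 1.5-fold. The log2 AZA ratio in MDS-L cells ranged from -0.90 to -0.10 for SPI1, from -1.27 to -0.49 for CEBPA, from 0.29 to 1.09 for CEBPB, from -1.55 to -0.85 for GFI1 and from -0.99 to -0.21 for MYB. Among the 38 partners, 7 to 9 were higher and 0 to 8 lower in MDS-L cells, and 0 to 6 higher in MDS-L/CDA cells. With AZA in MDS-L cells, 1 to 3 granulocyte genes were higher and 0 to 3 lower, 1 to 3 monocyte genes higher and 0 to 5 lower, and 1 to 3 MYB targets higher and 1 to 3 lower.

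No paired analysis was possible because each condition has 1 array. Dim probes give only bounds, and the floor was higher on the MDS-L/CDA arrays, so fewer dim genes have a value there.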
